A study of Mus musculus with 6 samples.

Results

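The Hoxa members, Meis1 and Pbx3 are 9 genes, taken by symbol from the 53465 rows of a table of mouse genes: Hoxa3, Hoxa5, Hoxa6, Hoxa7, Hoxa9, Hoxa10, Hoxa11, Meis1 and Pbx3. All 9 had 1 row each, and all 9 passed the filter on low values (3 or more of the 6 libraries reaching 1 RPKM), as did 11020 genes in all. RPKM is the number of reads per kilobase of gene scaled to the total reads of the library. The cells were a blood leukaemia line of genotype Nras(G12D)/MLL-AF9, which carries a mutant Nras and a fusion of Kmt2a (MLL) with Mllt3 (AF9). Both groups were grown with SCF, IL-3 and IL-6. The OMP group received 100 µM OMP for 6 days and the Vehicle group the same volume of PBS for 6 days, with 3 libraries each. OMP is taken here as 4'-O-methylpyridoxine, a relative of vitamin B6 that is known to inhibit the enzyme pyridoxal kinase. The labels do not say whether the line is 1 clone or whether replicates were separate cultures, so the spread behind every p-value may be technical.

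HOXA proteins are homeodomain transcription factors encoded side by side in 1 chromosomal cluster, and in blood they mark stem and progenitor cells and decline as cells mature. MEIS1 and PBX3 belong to the TALE class of homeodomain proteins and bind DNA together with HOX proteins such as HOXA9. In leukaemia with an MLL fusion, the fusion protein keeps the CXXC domain of KMT2A, which binds unmethylated CpG dinucleotides, and it holds the later HOXA genes and MEIS1 at a high level.

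The 7 Hoxa members lie on the minus strand of chromosome 6 (GRCm38), between 52169062 and 52245810. Stretches upstream of 3 start sites are shown: that of Hoxa7, the Hoxa member that rose with OMP, that of Hoxa9, its neighbour and the most abundant member, and that of Meis1, the partner that an MLL fusion is known to sustain. They come from RefSeq (GRCm38.p6), run 5′ to 3′ on the minus strand, and leave out bases of annotated exons. Capitals mark CpG dinucleotides. The RefSeq starts used for Hoxa7 and Hoxa9 lie inside the longer GENCODE extents given with each gene. The Hoxa7 stretch is chr6:52218712-52218823, the Hoxa9 stretch chr6:52227371-52227620 and the Meis1 stretch chr11:19018986-19019219.
Hoxa7 promoter: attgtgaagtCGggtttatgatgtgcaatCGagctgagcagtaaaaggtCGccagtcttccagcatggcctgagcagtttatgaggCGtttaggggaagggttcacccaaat
Hoxa9 promoter: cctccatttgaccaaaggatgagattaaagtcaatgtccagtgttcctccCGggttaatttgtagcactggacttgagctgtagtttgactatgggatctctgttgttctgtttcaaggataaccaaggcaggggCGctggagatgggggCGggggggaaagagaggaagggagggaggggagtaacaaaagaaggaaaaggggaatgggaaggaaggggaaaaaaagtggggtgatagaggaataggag
Meis1 promoter: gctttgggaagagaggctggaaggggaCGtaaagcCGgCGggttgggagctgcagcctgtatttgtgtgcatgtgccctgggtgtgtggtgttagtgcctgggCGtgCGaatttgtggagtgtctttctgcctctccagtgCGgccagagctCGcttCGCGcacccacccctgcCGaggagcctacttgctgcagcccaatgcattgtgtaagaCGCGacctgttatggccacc

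RefSeq windows of 250 bases before to 50 bases after a start were found for 8 of the 9 genes, with 2 windows for Hoxa10, and none was used for Pbx3. The Hoxa9 window held 4 CpG and the Hoxa7 window 9, beside a median of 7 over 32851 windows of the same length. The Meis1 window held 15 and the Hoxa5 window 29, the highest count among the 9 windows. The MEIS core TGACAG, searched on both strands, was found in 1 of the 9 windows, that of Hoxa3, and in 19.2% of all windows. The HOX-PBX composite TGATTNAT was found in 0 of the 9 and in 3.22% of all windows. These counts describe the letters only, since neither binding nor methylation was measured.

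Library totals recovered from the RPKM values ran from 3494986 to 4247619 reads. Over all genes tested with limma, 4735 passed an adjusted p of 0.05 (1702 upward and 3033 downward with OMP), and the median log2 fold change was -0.09. The split moved with scaling, to 2370 higher and 2237 lower with median-of-ratios scaling, 2245 and 2321 with quantile normalization, and 1215 and 3973 with rescaling to TPM. Levels of the listed myeloid leukaemia markers differed widely. Ptprc (the pan-leukocyte CD45) was at 104 to 145 RPKM and Spi1 (the transcription factor PU.1) at 113 to 131 RPKM over the 6 libraries. These were the 2 markers of that list called higher with OMP. Csf1r, of the same list, was at 1.55 to 1.98 RPKM over the 6 libraries. Mpo, called lower, had 11.6 to 12.7 RPKM in Vehicle and 1.98 to 2.97 RPKM in OMP. Of 9 erythroid, 6 B cell and 7 T cell markers, 5, 3 and 4 were listed at 0 in every library, among them Slc4a1 (erythroid), Pax5 (B cell) and Cd3e (T cell). The T cell markers above 0 included Lck, a kinase gene, at 2.58 to 3.87 RPKM over the 6 libraries, and Trac, a T cell receptor gene, with 2 reads in Vehicle and 15 in OMP. The 1 megakaryocyte marker tested, Gp1bb, had 0.529 to 0.637 RPKM in Vehicle and 1.16 to 1.86 RPKM in OMP, on 13 and 32 reads. Gp1bb passed the filter only through the OMP libraries, so its call as higher carries no weight here. The summed RPKM of 6 megakaryocyte markers was 1.12 to 1.44 in Vehicle and 3.81 to 4.48 in OMP, with Pf4 listed at 0. That of 8 stromal and endothelial markers was 80.9 to 85.4 and 54.5 to 56.9, nearly all of it from Pecam1, which leukocytes also express and which was lower. The summed RPKM of 11 myeloid leukaemia markers was 2984 to 3066 in Vehicle and 1434 to 1536 in OMP, with 2 higher and 7 lower. The summed RPKM of 12 granulocyte maturation markers was 2912 to 3012 in Vehicle and 10950.1 to 11595 in OMP, with 11 higher and 0 lower of 12 tested. Over all genes tested 15.4% were higher and 27.5% lower. Ltf, 1 of the 11, had 0.515 to 1.07 RPKM in Vehicle and 6.36 to 9.21 RPKM in OMP. It met the filter only with the OMP libraries. The part of these marker lists in the results below was not tested. In bulk RNA, fewer cells of a type and less RNA per cell cannot be told apart.

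Hoxa7 rose and Pbx3 fell with OMP, while the other members, among them Hoxa9, Hoxa10 and Meis1, did not pass the test. Of the 9 genes 1 was higher and 1 lower with limma, or 22.2%, where 43.0% of all genes tested were called, 15.4% higher and 27.5% lower. The groups did not overlap for 2 of the 9 genes, Hoxa7 and Pbx3, where 54.5% of all genes tested did not overlap. The median log2 fold change of the 9 genes was 0.11, beside -0.09 over all genes tested. Fold changes were fitted to log2(RPKM + 0.5), which understates the change of low genes.

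**Figure D1:**
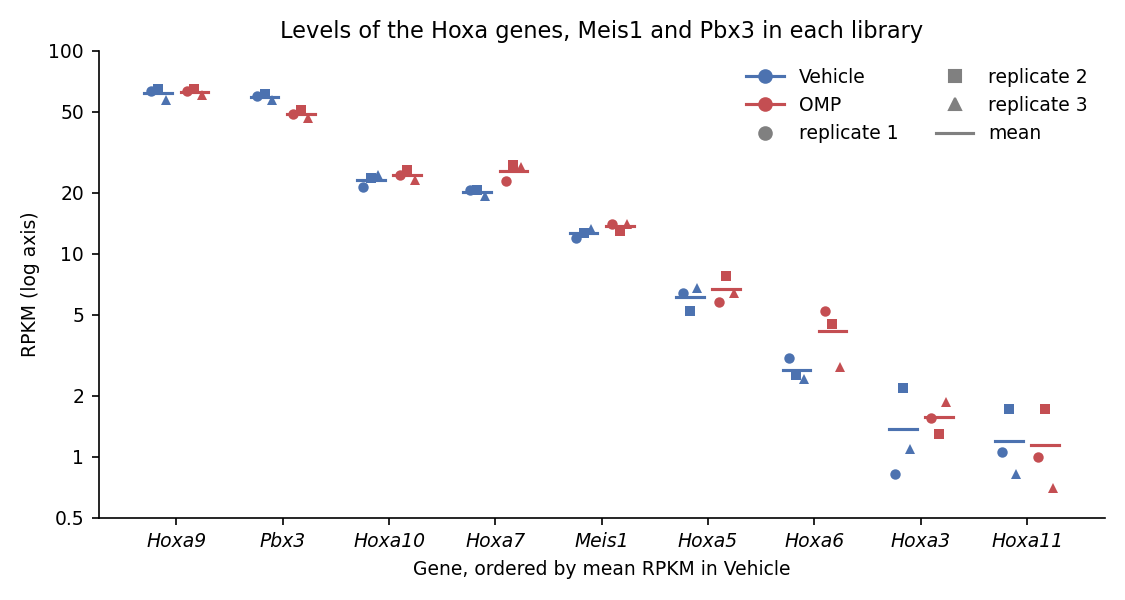
RPKM (log axis) of each of the 9 genes in every library, Vehicle in blue and OMP in red, with the replicate number as the point's shape and a line at the group mean. The 3 OMP points lie above the 3 Vehicle points for Hoxa7 (22.8 to 27.3 against 19.2 to 20.7) and below them for Pbx3 (46.7 to 51.1 against 57.2 to 61.4), and the groups overlap for the other 7 genes.

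Hoxa7 (ENSMUSG00000038236, GRCm38 chromosome 6, 52214491 to 52221854) encodes a HOX protein of the middle of the cluster. Its RPKM was 20.5, 20.7 and 19.2 in Vehicle replicates 1 to 3 and 22.8, 27.3 and 26.8 in OMP replicates 1 to 3. All OMP libraries were above all Vehicle libraries, with OMP replicate 1 the closest to them. The mean went from 20.1 ± 0.800 to 25.6 ± 2.47 RPKM (SD, n = 3), which is 0.34 ± 0.08 (SE) on the log2 scale, or 1.26-fold with a 95% interval of 1.11 to 1.43 (limma adjusted p = 0.00902). Rises of this size or more were seen in 12.8% of all genes tested. The value rests on 488 reads in Vehicle and 555 in OMP. Hoxa7 passed the threshold in all 16 alternatives to the processing, at log2 fold changes of 0.26 to 0.43. In the annotation, 20.4% of its exonic bases are shared with the antisense gene Hoxaas3, which had 6 reads in Vehicle and 12 in OMP. No source used here gives the strand setting of the counting, so the reads of these genes cannot be told apart where they overlap.

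Pbx3 (ENSMUSG00000038718, chromosome 2, 34171457 to 34373142) encodes the PBX protein that is a cofactor of HOXA9 in leukaemia. Its RPKM was 59.7, 61.4 and 57.2 in Vehicle and 48.6, 51.1 and 46.7 in OMP. All OMP libraries were below all Vehicle libraries. The mean went from 59.4 ± 2.13 to 48.8 ± 2.19 RPKM (SD, n = 3), a log2 fold change of -0.28 ± 0.05 (SE), or a ratio of 0.822 with a 95% interval of 0.758 to 0.891 (limma adjusted p = 0.00257). Falls of this size or more were seen in 29.7% of all genes tested. The value rests on 1961 reads in Vehicle and 1435 in OMP, and no exonic base of Pbx3 is shared with another annotated gene (0.0%). Pbx3 passed the threshold in all 16 alternatives, at log2 fold changes of -0.37 to -0.19.

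Hoxa9 (ENSMUSG00000038227, chromosome 6, 52223100 to 52231089), the HOX gene most tied to acute myeloid leukaemia, had the highest mean RPKM of the 9 genes in both groups. Its RPKM was 63.6, 64.8 and 57.0 in Vehicle and 63.4, 64.9 and 60.2 in OMP, and replicate 3 was the lowest in both groups. The means were 61.8 ± 4.20 and 62.9 ± 2.39 RPKM (SD, n = 3). The ratio of OMP to Vehicle was 1.02 with a 95% interval of 0.928 to 1.12 (limma adjusted p = 0.750). Among the genes tested, Hoxa9 stood at the 87.7th percentile of RPKM in Vehicle, close to Pbx3 at the 87.1st. Its direction was not stable: TPM rescaling gave a log2 fold change of -0.06 and leaving out Vehicle replicate 3 gave -0.03, neither past the threshold.

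Hoxa10 (ENSMUSG00000000938, chromosome 6, 52231197 to 52240854), which adjoins Hoxa9 and is also a posterior HOX gene of myeloid progenitors, had 21.3, 23.5 and 24.4 RPKM in Vehicle and 24.5, 25.8 and 23.1 RPKM in OMP. OMP replicate 3 lay among the Vehicle values. The ratio was 1.06 with a 95% interval of 0.946 to 1.19 (limma adjusted p = 0.378).

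Meis1 (ENSMUSG00000020160, chromosome 11, 18879817 to 19018985), the TALE partner whose gene is a target of MLL fusions, had 12.0, 12.6 and 13.2 RPKM in Vehicle and 14.0, 13 and 14.0 RPKM in OMP. Among the genes tested, Meis1 stood at the 48.1th percentile of RPKM in Vehicle. The groups overlapped only through OMP replicate 2 and Vehicle replicate 3. The means were 12.6 ± 0.573 and 13.7 ± 0.552 RPKM (SD, n = 3), a ratio of 1.08 with a 95% interval of 0.968 to 1.21 (limma adjusted p = 0.221). Of its exonic bases 18.3% are shared with other annotated genes. Meis1 was higher with median-of-ratios scaling (log2 fold change 0.20, limma adjusted p = 0.0485) and with quantile normalization (0.21, limma adjusted p = 0.0394), and with TPM rescaling the value was 0.03 (limma adjusted p = 0.734). The call therefore depends on the scaling.

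**Figure D2:**
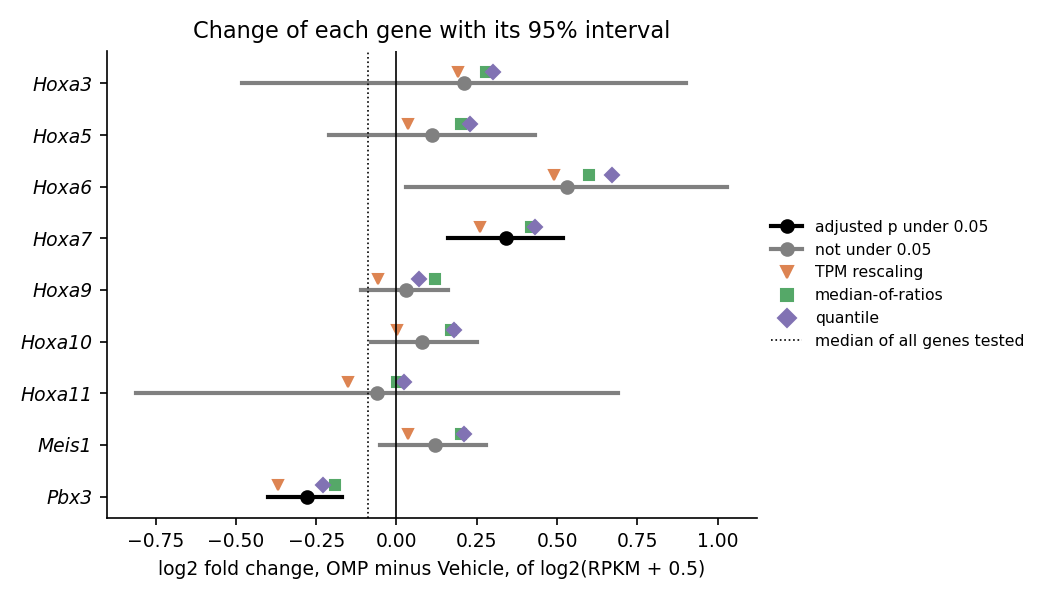
Log2 fold change of each gene, OMP minus Vehicle, with its 95% interval (limma; black where the adjusted p is under 0.05, grey otherwise) and the values under 3 other scalings as small symbols. The intervals of Hoxa7 and Pbx3 lie on opposite sides of 0 under the deposited scaling, and TPM rescaling puts every gene lower than the other scalings do.

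Hoxa5, Hoxa6, Hoxa3 and Hoxa11 were lower in level and less precise. Hoxa5 (chromosome 6, 52201754 to 52204587), a middle HOX gene, had 6.41, 5.21 and 6.77 RPKM in Vehicle and 5.79, 7.80 and 6.44 RPKM in OMP, with the Vehicle and OMP values interleaved. Its ratio was 1.08 with a 95% interval of 0.867 to 1.35 (limma adjusted p = 0.547).

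Hoxa6 (chromosome 6, 52206288 to 52208722), next to Hoxa7 in the cluster, had 3.06, 2.52 and 2.42 RPKM in Vehicle and 5.24, 4.51 and 2.77 RPKM in OMP. OMP replicates 1 and 2 were above all Vehicle libraries, and OMP replicate 3 was not. Its log2 fold change of 0.53 ± 0.22 (SE) was the largest of the 9 in size and did not pass the threshold (limma adjusted p = 0.0840). It rests on 28 Vehicle and 39 OMP reads, whose ratio per library total was 1.56 with an exact binomial 95% interval of 0.937 to 2.64, which covers counting error only. Hoxa6 passed without OMP replicate 3 (log2 fold change 0.76, limma adjusted p = 0.0113) and with quantile normalization (0.67, limma adjusted p = 0.0387).

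Hoxa3 and Hoxa11 were near the filter on low values. Hoxa3 (chromosome 6, 52169062 to 52213336), an anterior HOX gene, had 43 reads in Vehicle and 44 in OMP over all libraries, with 0.826 to 2.17 RPKM in Vehicle and 1.30 to 1.87 RPKM in OMP. Its ratio had a 95% interval of 0.717 to 1.87 (limma adjusted p = 0.606). Of its exonic bases 27.1% are shared with other annotated genes. Hoxa11 (chromosome 6, 52242106 to 52245810), a posterior HOX gene, had 33 and 28 reads, with 0.824 to 1.71 RPKM in Vehicle and 0.705 to 1.72 RPKM in OMP, and a 95% interval of 0.570 to 1.62 (limma adjusted p = 0.903). Of its exonic bases 35.0% are shared with the antisense gene Hoxa11os, which had 3 and 4 reads. At this depth a change smaller than these intervals was not detectable for either gene.

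Ordered by mean RPKM in Vehicle, the genes ran Hoxa9, Pbx3, Hoxa10, Hoxa7, Meis1, Hoxa5, Hoxa6, Hoxa3 and Hoxa11. The ranges over the 3 libraries overlapped between Hoxa9 and Pbx3 and between Hoxa3 and Hoxa11, and between no other neighbours. In OMP the order differed in 1 place, with Hoxa7 at 25.6 and Hoxa10 at 24.5 RPKM, and these ranges overlapped. In OMP the ranges of Hoxa9 (60.2 to 64.9 RPKM) and Pbx3 (46.7 to 51.1 RPKM) no longer did. The deposited RPKM used 1 length per gene, for example 3226 bp for Hoxa9, 2734 bp for Pbx3 and 7553 bp for Meis1. With the length of all annotated exons instead, an alternative chosen after seeing the data, the Vehicle mean of Hoxa9 was 35.7 RPKM. The Vehicle means were 26.6 for Pbx3, 18.1 for Hoxa10, 14.0 for Hoxa7 and 9.04 for Meis1, in the same order. Hoxa11 at 1.20 came above Hoxa3 at 0.586. In OMP these lengths gave 19.2 RPKM for Hoxa10 and 17.9 for Hoxa7, the order of Vehicle. The change of order in OMP and the closeness of Hoxa9 and Pbx3 in Vehicle therefore depend on the length used.

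Within the cluster, most of the Hoxa RNA came from the neighbouring genes Hoxa7, Hoxa9 and Hoxa10. Hoxa9 made up 53.1% ± 1.83 of the summed RPKM of the 7 Hoxa members in Vehicle and 49.7% ± 1.19 in OMP (SD, n = 3). Hoxa7 made up 17.3% ± 0.228 and 20.3% ± 1.83, and Hoxa10 19.9% ± 1.84 and 19.3% ± 0.409. The share of Hoxa7 was 17.1% to 17.6% in the Vehicle libraries and 18.3% to 22% in the OMP libraries. The sum itself was 117, 121 and 112 RPKM in Vehicle and 124, 133 and 122 RPKM in OMP, so the groups did not overlap, by a margin of less than 1 replicate SD (4.44 in Vehicle, 6.08 in OMP).

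**Figure D3:**
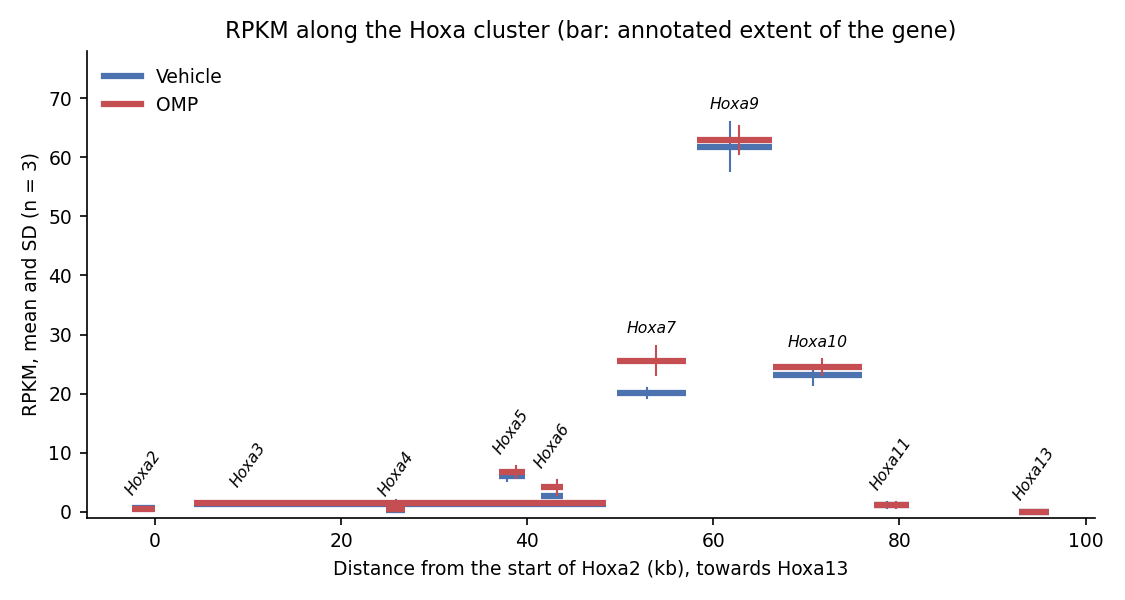
Mean RPKM ± SD (n = 3) of 10 Hoxa genes against distance from the start of Hoxa2 in kb, with each gene drawn as a bar over its annotated extent, Vehicle in blue and OMP in red. The 3 abundant genes, Hoxa7, Hoxa9 and Hoxa10, are neighbours; Hoxa5 and Hoxa6 beside them are lower, and Hoxa7 shows the widest gap between the groups.

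Of 31 rows of the table that overlap the cluster, 19 were above 0 in any library and 11 passed the filter. Hoxa2 and Hoxa4 were under the filter with 13 and 6 reads in Vehicle, and Hoxa13 was listed at 0 in every library. Hotairm1, a noncoding RNA of the anterior end that is known from myeloid cells, had 15 reads in Vehicle and 7 in OMP (limma adjusted p = 0.200). Of the 11 rows tested 2 were higher and 0 lower, where 43.0% of all genes tested were called. Besides Hoxa7, the row of the cluster that passed the threshold was Gm27477 (limma adjusted p = 0.0494), a model of 143 bp for a small RNA. Gm27477 had 2 reads in Vehicle and 8 in OMP, and met the filter only with the OMP libraries, where it was high. It was named after its values were seen, and its groups overlapped.

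Skap2, the nearest listed neighbour beyond the anterior end of the cluster, encodes a cytoplasmic adaptor protein of leukocytes. Its RPKM was 48.6, 52.2 and 46.6 in Vehicle and 64.2, 63.5 and 65.2 in OMP. Every OMP library was higher, and the log2 fold change was 0.39 ± 0.05 (SE) with a limma adjusted p of 0.000513. Snx10, further out on the same side, had 21.9 to 26.0 RPKM in Vehicle and 20.8 to 23.7 RPKM in OMP (limma adjusted p = 0.212). Evx1, beyond Hoxa13, and the noncoding Hottip and Halr1 were listed at 0. Of the 14 listed cluster genes and neighbours 4 were tested, of which 1 was higher and 0 lower, or 25.0% called beside 43.0% of all genes tested, and 1 (Mira) had no row. With TPM rescaling Snx10 was lower (log2 fold change -0.22, limma adjusted p = 0.0487).

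The Hoxa cluster was the main source of Hox RNA. Of 28 genes of the Hoxb, Hoxc and Hoxd clusters 26 were listed at 0 in all 6 libraries and 1 passed the filter. That gene, Hoxb4, a HOX gene of blood stem cells, had 1.25, 1.81 and 1.28 RPKM in Vehicle and 1.12, 0.878 and 1.05 RPKM in OMP. The OMP values were below the Vehicle values without passing the threshold (log2 fold change -0.36 ± 0.24 SE, limma adjusted p = 0.274), on 45 and 28 reads. The remaining gene, Hoxb2, had 1 read in all.

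Among the other TALE genes, Pbx2 and Pknox1 were lower with OMP, as Pbx3 was. Pbx2, a PBX protein of many tissues, had 17.2, 19.5 and 19.0 RPKM in Vehicle and 14.9, 15.8 and 15.7 RPKM in OMP, with no overlap (log2 fold change -0.26 ± 0.07 SE, limma adjusted p = 0.0182). Pknox1, also called PREP1, a PBX partner like the MEIS proteins, had 18.1, 15.9 and 18.0 RPKM in Vehicle and 10.2, 12.0 and 15.4 RPKM in OMP (log2 fold change -0.47 ± 0.13 SE, limma adjusted p = 0.0220).

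OMP replicate 3 was the closest to the Vehicle values of Pknox1. Pbx4 had 31 reads in Vehicle and 9 in OMP (log2 fold change -1.17 ± 0.44 SE, limma adjusted p = 0.0593). It passed the filter only through the Vehicle libraries, where it was high. Tgif1, a TALE repressor of TGF-beta targets, had 49.0 to 52.6 RPKM in Vehicle and 49.6 to 57.1 RPKM in OMP (limma adjusted p = 0.410). Meis2 had 4 reads in Vehicle and 1 in OMP.

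Of 9 listed TALE genes 4 were tested, 0 were higher and 2 lower, or 50% called beside 43.0% of all genes tested, with a median log2 fold change of -0.36 beside -0.09. On 4 genes these shares are near each other. The 2 lower genes became 0 without Vehicle replicate 3 or without OMP replicate 1, and 3 without OMP replicate 3. The calls of Pbx2 and Pknox1 were less stable than that of Pbx3. Pbx2 missed the threshold with median-of-ratios scaling (limma adjusted p = 0.0837), with quantile normalization (0.106) and without Vehicle replicate 2 or 3 or OMP replicate 1 (0.0533 to 0.0693). Pknox1 missed it without a filter (0.0625) and without Vehicle replicate 1 or 3 or OMP replicate 1 or 2 (0.0560 to 0.0658).

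Ratios between 2 genes of the same library do not change when a library is scaled by 1 factor, as in TPM or median-of-ratios scaling, but can change with quantile normalization. The ratio of Hoxa7 to Hoxa9 was 0.322, 0.319 and 0.337 in Vehicle and 0.359, 0.421 and 0.444 in OMP. That of Pbx3 to Hoxa9 was 0.938, 0.948 and 1.0 in Vehicle and 0.766, 0.787 and 0.775 in OMP. The groups did not overlap for either ratio, so Hoxa7 gained and Pbx3 lost relative to Hoxa9 in every OMP library.

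The ratio of Pbx3 to Meis1 was 4.97, 4.87 and 4.35 in Vehicle and 3.46, 3.92 and 3.34 in OMP, a mean 1.32-fold lower. The ratio of Hoxa7 to Pbx3, the 2 genes that were called, was 0.339 ± 0.00413 in Vehicle and 0.526 ± 0.0525 in OMP (SD, n = 3). The ratio of Meis1 to Hoxa9, 0.205 ± 0.0227 in Vehicle and 0.218 ± 0.0158 in OMP, overlapped between groups, and so did those of Hoxa10 to Hoxa9, Hoxa6 to Hoxa9 and Hoxa7 to Hoxa10. For the 4 ratios whose groups did not overlap, the exact two-sided permutation test gave p = 0.1, the smallest that 3 against 3 libraries allow, and 0.2 after Benjamini-Hochberg adjustment over the 8 ratios. The pairs were chosen after the values were seen. Each of these 4 ratios holds Hoxa7 or Pbx3, so they are no support beyond the results of those genes. The groups of Hoxa7 to Pbx3 had to stand apart, since Hoxa7 was higher and Pbx3 lower in every OMP library.

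**Figure D4:**
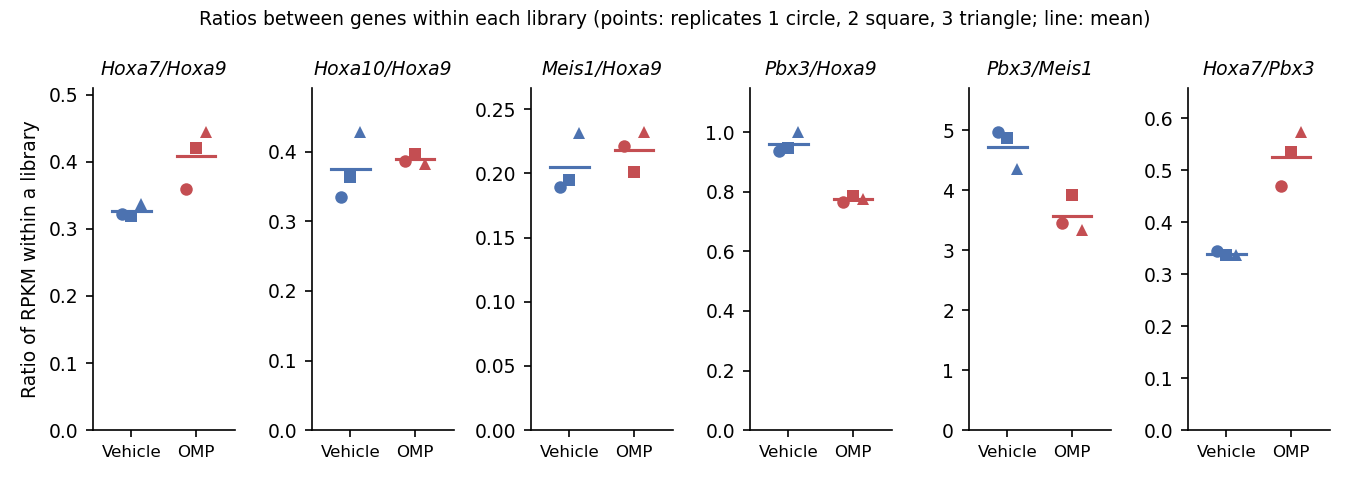
Ratio of the RPKM of 2 genes within each library, Vehicle in blue and OMP in red, with a line at the group mean and each axis starting at 0. The groups stand apart for Hoxa7 to Hoxa9, Pbx3 to Hoxa9, Pbx3 to Meis1 and Hoxa7 to Pbx3, and overlap for Hoxa10 to Hoxa9 and Meis1 to Hoxa9. For Hoxa7 to Pbx3 this follows from the values of the 2 genes themselves.

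Factors that act on Hoxa chromatin moved in both directions. Of 25 genes, all tested, 5 were higher and 5 lower, or 40.0%, close to the 43.0% over all genes, with a median log2 fold change of 0.06. Kmt2a, the methyltransferase gene at the 5′ side of the fusion, went from 70.6 to 74.4 RPKM in Vehicle to 119.6 to 126 RPKM in OMP (log2 fold change 0.73 ± 0.04 SE, limma adjusted p = 7.81e-06). Mllt3, its fusion partner, went from 47.1 to 51.9 RPKM to 72.3 to 76.3 RPKM (0.59 ± 0.05 SE, limma adjusted p = 4.94e-05). Whether reads of the fusion transcript are counted in these 2 rows is not given in the sources used here.

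The Polycomb genes Ezh2, which encodes the H3K27 methyltransferase, and Suz12, which encodes its core partner, were lower with OMP. Ezh2 had 57.3 to 60.0 RPKM in Vehicle and 30.7 to 34.1 RPKM in OMP (log2 fold change -0.84 ± 0.05 SE, limma adjusted p = 1.23e-05). Suz12 had 87.9 to 92.9 and 64.9 to 70.4 RPKM (-0.41 ± 0.05 SE, limma adjusted p = 0.000231). Eed, the remaining core subunit, had 31.5 to 33.5 RPKM in Vehicle and 33.0 to 37.5 RPKM in OMP (limma adjusted p = 0.136). Kmt2a, Mllt3, Ezh2 and Suz12 passed the threshold in all 16 alternatives, while the counts of the list were 12 higher and 4 lower with median-of-ratios scaling, 9 and 4 with quantile normalization, 8 and 6 with limma-voom, and 5 and 10 with TPM rescaling.

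Genes reported as targets of HOXA9 and MEIS1 moved in both directions. Of 21 listed genes 19 were tested, of which 5 were higher and 10 lower, or 78.9% called beside 43.0% of all genes tested, with a median log2 fold change of -0.16 beside -0.09. Lower calls also outnumbered higher ones over all genes, at 27.5% and 15.4%, and with quantile normalization the list had 5 higher and 6 lower. Myb, a transcription factor of progenitor proliferation, went from 148 to 153 RPKM in Vehicle to 111 to 116 RPKM in OMP (log2 fold change -0.42 ± 0.04 SE, limma adjusted p = 5.88e-05). Pim1, a survival kinase gene, went from 26.2 to 27.6 RPKM to 14.1 to 17.4 RPKM (-0.74 ± 0.08 SE, limma adjusted p = 0.000191).

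Ccl3, a chemokine gene, was higher, at 290 to 306 RPKM in Vehicle and 459 to 481 RPKM in OMP (log2 fold change 0.66 ± 0.03 SE, limma adjusted p = 4.30e-06). Id2, an inhibitor of basic helix-loop-helix factors, went from 5.30 to 6.95 RPKM to 10.9 to 14.4 RPKM (1.04 ± 0.14 SE, limma adjusted p = 0.000480). These 4 genes passed in all 16 alternatives.

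Further members of this list were named after their values were seen. Bcl2, Lmo2, Foxp1, Msi2, Cd34 and Igf1r were lower, by log2 fold changes of -0.44 (Bcl2) to -0.13 (Igf1r). Flt3, also counted as lower (-0.75), had 1.40 to 1.93 RPKM in Vehicle and 0.770 to 0.882 RPKM in OMP. It rests on 76 and 32 reads and passed the filter only through the Vehicle libraries, so its call carries no weight here. Sox4, Mef2c and Camp were higher, and Camp is also one of the granulocyte maturation markers. The 10 lower genes became 7 with median-of-ratios scaling, and 6 to 8 when 1 library was left out, with 6 without Vehicle replicate 3.

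**Figure D5:**
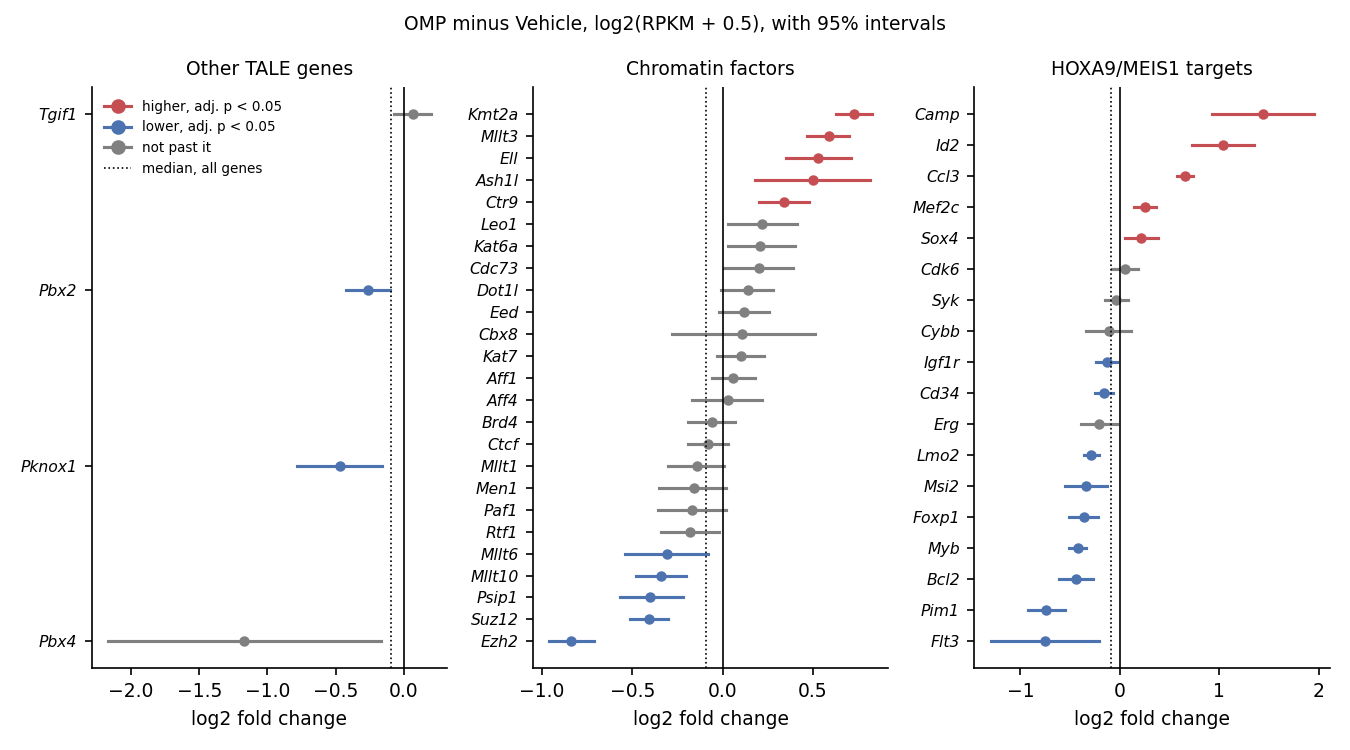
Log2 fold change with its 95% interval for tested genes of 3 lists: the other TALE genes, the chromatin factors and the reported HOXA9 and MEIS1 targets, with calls in colour and the median of all genes tested as a dotted line. Pbx2 and Pknox1 lie below 0, Kmt2a and Mllt3 stand at the top of the chromatin factors and Ezh2 at the bottom, and the targets spread to both sides.

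The genes whose values over the 6 libraries were most like those of Hoxa9, among 7849 searched, were Elmo1, Idh3a and Cmip, with Pearson r of 0.986, 0.979 and 0.964 on the log2(RPKM + 0.5) scale. For Meis1 they were Rad54l2, Smarca4 and Traf3ip3, with r of 0.995, 0.985 and 0.983. Elmo1, like Hoxa9, was lowest in replicate 3 of both groups (41.9 RPKM in Vehicle and 44.9 RPKM in OMP). Each r is a description over 6 libraries of 2 groups and shares their depth and scaling. Each is also among the largest of 7849 searched, so values this high can arise between unrelated genes.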

How the data were processed

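The authors deposited RPKM values, 1 column per library, from poly(A)-selected RNA (TruSeq), per the labels. Tools listed in the submitters' processing notes are STAR 2.5.3a, featureCounts 1.6.3, FastQC 0.11.5 and Trimmomatic 0.36, and the build is mm10 (GRCm38). For annotation release, strand setting and filters the answer is "not given in the sources used here". The deposited RPKM values were turned into reads with 1 length per gene and 1 total per library, both recovered from the values. For 94.6% of 19970 genes above 0 the fitted length could be matched to an annotated one. Whole reads for 100% of these genes (tolerance 1e-06) follow from how each length was fitted, so that share is no check. For a gene of 1 kb, 3 reads are 0.706 to 0.858 RPKM. Libraries of 1 group differed beyond sampling noise over all genes (chi-square per degree of freedom 1.19 to 1.61). A like measure for each member ran from 0.691 (Meis1) to 2.45 (Hoxa9), with 0.978 for Hoxa7 and 0.927 for Pbx3. Counting error alone gives values near 1, so the spread of Hoxa7 and Pbx3 was not beyond it.

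OMP was compared with Vehicle, 3 libraries each, with limma 3.58.1 in R 4.3.3 (two-sided, no covariates, mean-variance trend, Benjamini-Hochberg over all 11020 genes, threshold 0.05). The procedure was also run on simulated data in which few genes changed. Many more were called here, so that run is no check of these calls. Positions and exon overlaps are from GENCODE M21, which may not be the release counted. Alternatives changed the pseudocount (0.1 or 1), the filter (none, or 5 RPKM), the scaling (TPM, median of ratios, quantile), the prior (robust), the model (replicate block, or limma-voom on recovered reads) or left out 1 library. The members and the gene lists were chosen with earlier results of these data known. Named genes were the members, the tested genes of the Hoxa neighbour, Hox and TALE lists, and the 2 called genes with the smallest p in each direction of each other list. The genes most like a member were the 3 with the highest r among those with a mean RPKM of 5 or more, without predicted models and pseudogenes. Itgam, with several rows, was not analysed here. Some genes are not reported here.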

Additional observations from a re-analysis of the deposited data

How the results depend on the processing

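Over the 9 genes and their alternatives, 130 of 141 log2 fold changes kept their direction and their side of the threshold, 4 passed it where the reported value did not (Hoxa6 and Meis1, 2 each), 0 lost it and 7 changed direction. The changes of direction were all in genes that were not called. They were Hoxa9 with TPM rescaling (-0.058) and without Vehicle replicate 3 (-0.031), Hoxa3 without Vehicle replicate 1 (-0.00058), and Hoxa11 with median-of-ratios scaling (0.0028), with quantile normalization (0.024), without Vehicle replicate 2 (0.15) and without OMP replicate 3 (0.14). The cause was not tested. Leaving out each library gave -0.00058 to 0.50 for Hoxa3, -0.031 to 0.061 for Hoxa9 and -0.30 to 0.15 for Hoxa11. The same gave 0.29 to 0.42 for Hoxa7 and -0.32 to -0.25 for Pbx3. For the 17 other named genes of the lists, 253 of 268 values were on the same side, 10 lost the threshold (all Pbx2 or Pknox1), 4 gained it (3 for Pbx4, 1 for Snx10) and 1 changed direction (Tgif1 with TPM rescaling, -0.018). These were computed after seeing the data. Over all genes, leaving out each library gave 3968 to 4241 calls. Same-numbered libraries showed no common deviation from their group means over all genes, with correlations of -0.0024, 0.015 and 0.0069. This cannot exclude a shared step that acts on few genes. With the replicate block 4445 genes were called, and Hoxa7 and Pbx3 were among them. Depth limits Hoxa3, Hoxa6 and Hoxa11, which were not tested under the filter at 5 RPKM.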
